A study of Equus caballus with 6 samples.

Results

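The transcripts described here are those of SAA and SAA1, 2 horse genes of serum amyloid A, and of SPI2 and SERPINA14, 2 serpin genes. Their probes were found on a horse microarray by the RefSeq transcript that each probe carries: 1 probe for SAA (NM_001081853), 7 for SAA1 (NM_001163892), 2 for SPI2 (NM_001114533) and 20 for SERPINA14 (NM_001242444). These are 30 of 43603 probes, and 4 of the 870 genes that could be matched to RefSeq. The RNA was that of blood leukocytes, collected as buffy coat from 3 warmblood geldings. Horse 1 was 11 years old, horse 2 was 7 and horse 4 was 15, per the labels (the series' own design text gives an age range that does not include the age of horse 2). Every horse was sampled once before exercise and once after it, which makes 3 arrays per group. The labels of the later samples read 60 min, while the protocol speaks of sampling directly after exercise. How long after exercise they were taken is therefore unclear, and the kind of exercise is not given in the sources used here.

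The 4 genes had been picked from results on these same arrays. SPI2, SAA and SAA1 stood near the top of a comparison between the horses, and SERPINA14 stood among the genes with the largest change after exercise. The differences between horses for the first 3 genes, and the change after exercise for SERPINA14, are therefore descriptions and carry no test here. In the comparison between horses, at a threshold of 0.05 on limma's adjusted p, both SPI2 probes lay just inside (0.0472) and SAA (0.0527) and the leading SAA1 probe (0.0541) just outside. The choice did not rank SAA, SAA1 and SPI2 by their mean change with exercise, or SERPINA14 by its difference between horses. Neither is independent of the choice, however. The comparison between horses counts uneven changes within horses as error, which can favour genes with even changes. For these 3 genes the errors and intervals given below with the horse as a block may therefore be too narrow. The comparison for exercise counts the spread between animals as error, which can favour genes whose horses lie close together.

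Serum amyloid A is the major acute-phase protein of the horse. It is made mostly by the liver when IL6, IL1 and TNF signal inflammation, it binds to lipoproteins, and it acts on leukocytes through receptors such as FPR2 and TLR2. Serpins are inhibitors that trap a serine protease in a covalent complex, and several plasma serpins rise in the acute phase. SPI2 is a horse serpin, and SERPINA14 is the uterine serpin, secreted by the endometrium under progesterone. In the RefSeq gene table of the assembly TB-T2T, SAA and SAA1 lie on 1 chromosome with 2 genes between them, and SPI2 and SERPINA14 lie on another with 2 genes between them, one of which is SERPINA11. SAA and SAA1 are close relatives, and whether a probe of one also binds transcripts of the other was not tested.

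Levels are given as the log2 of the processed signal minus that array's 75th percentile, so that a step of 1 is a factor of 2 and a level of a dim transcript is negative. A probe was called well above background by the scanner software on its own array. The share of such spots ran from 64.1% to 69.4% over the 6 arrays, no spot was saturated, and precision is limited by there being 6 arrays. Of the 2 slides, slide 2 carried horses 1 and 2 before exercise and slide 1 carried the 4 remaining samples. As for the label, all 7 leukocyte markers with a named probe (CD14, CD2, CD68, CD74, IL7R, LTF and MMP9) were well above background on all 6 arrays. The 1 probe of albumin (ALB), which marks liver, was so on none. Other genes listed as liver markers were well above background, CYP2C92 and CYP3A89 on all 6 arrays and CYP3A93 on 4.

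SAA differed between the animals and hardly within them. Its probe (A_69_P000786) was well above background on all 6 arrays. In scanner units its processed signal, with the error that the software's own model assigns to the spot, was 188 ± 19.6 before and 194 ± 19.8 after exercise in horse 1. In horse 2 it was 39.8 ± 7.6 and 47.0 ± 7.0, and in horse 4 it was 253 ± 25.8 and 171 ± 17.6. Both signals of horse 2 lay far below the other 4, and before and after overlapped. On the log2 level the values were -3.25 and -3.33 in horse 1, -5.99 and -5.58 in horse 2, and -2.79 and -2.72 in horse 4. The lower raw signal of horse 4 after exercise went with a lower 75th percentile on that array, 1124 against 1753 scanner units. Horse 4 exceeded horse 2 by 9.18-fold before and 7.26-fold after exercise, and horse 1 exceeded horse 2 by 6.67-fold and 4.74-fold.

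With exercise SAA did not change detectably. The change was -0.08, 0.42 and 0.08 in horses 1, 2 and 4, a mean of 0.14 ± 0.25 (SD, n = 3 horses). limma gave it a standard error (SE) of 1.03 and an adjusted p of 0.9996, since that fit counts the spread between animals as error. With the horse as a block the SE was 0.18 and the adjusted p 0.84, and the 95% interval of the change ran from -0.33 to 0.60. Of all 29570 probes tested, 0% were called for exercise in either fit, while 855 (2.89%) had an unadjusted p under 0.05 without the block and 1798 with it.

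**Figure D1:**
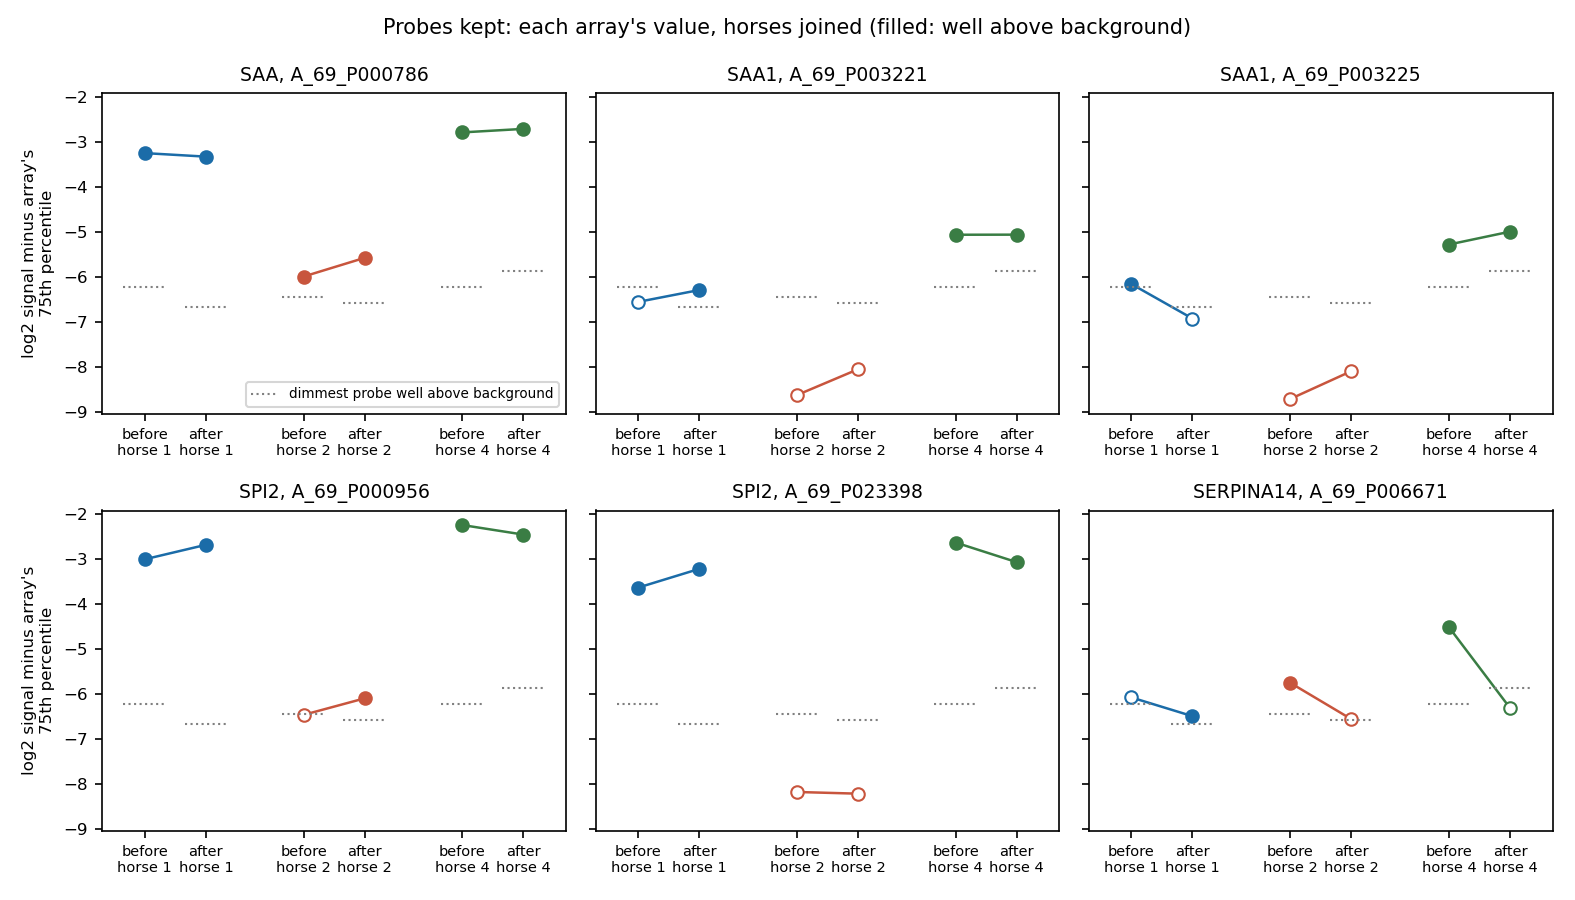
Level (log2 processed signal minus the array's 75th percentile) of the 6 probes of SAA, SAA1, SPI2 and SERPINA14 that were well above background on at least 3 arrays. Points are single arrays, lines join the 2 samples of a horse, filled points are well above background and dotted bars mark the dimmest probe well above background on that array. In the first 5 panels horse 2 lies lowest and horse 4 highest at both times, while the SERPINA14 probe is lower after exercise in each horse.

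SAA1 was near the background mark, and its 7 probes could be set side by side. Only 4 of them were well above background on any array, 2 of those on 3 arrays (which were kept for testing) and 2 on both arrays of horse 4 alone. The probe A_69_P003221 had levels of -6.55 and -6.29 in horse 1, -8.62 and -8.05 in horse 2, and -5.06 and -5.06 in horse 4, before and after exercise. It was well above background on both arrays of horse 4 and on 1 of horse 1, and on neither of horse 2. The probe A_69_P003225 read -6.16 and -6.92 in horse 1, -8.71 and -8.09 in horse 2, and -5.28 and -5.00 in horse 4. Both probes thus put horse 2 lowest and horse 4 highest at both times.

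The other SAA1 probes did the same with 1 exception. The order of horse 2, horse 1, horse 4 from low to high held at both times for 6 of the 7 probes, where 12.0% of all kept probes have that order. That share describes kept probes, while only 2 of these 7 were kept, and SAA1 was picked for its difference between horses. The exception, A_69_P072811, was not well above background on any array. Nor were A_69_P003222 and A_69_P003223, which had the order. Where horses 1 and 2 were both not well above background, their order is not measured. For A_69_P003224 and A_69_P004166 only horse 4 gave a measured level, with means of -5.62 and -4.62, while both arrays of horses 1 and 2 were not well above background. Because horse 2 was not above background for SAA1, a fold against it is a lower bound, taken from the dimmest probe that was well above background on the same array (-6.44 before and -6.58 after). By this bound horse 4 was at least 2.73-fold higher than horse 2 for A_69_P003221, at least 2.59-fold for A_69_P003225, at least 1.85-fold for A_69_P003224 and at least 3.71-fold for A_69_P004166. The measured ratios of these dim spots were larger, for example 11.8-fold before and 7.93-fold after exercise for A_69_P003221.

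With exercise the SAA1 probes showed no shared direction. The probe A_69_P003221 was higher after exercise in all 3 horses, while 28.8% of kept probes changed the same way in all 3. Its changes were 0.26, 0.57 and 0.002 in horses 1, 2 and 4 (mean 0.28 ± 0.29, SD, n = 3 horses). limma with the horse as a block gave an SE of 0.18, an adjusted p of 0.75 and a 95% interval from -0.21 to 0.76. The probe A_69_P003225 changed by -0.77, 0.62 and 0.29 (mean 0.05 ± 0.72), with a blocked adjusted p of 0.97 in limma. Over all 7 probes the mean change ran from -0.62 to 0.28, and 5 of 7 were below 0. Probes of this gene therefore differed in the sign of a small change, most of them below the background mark.

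**Figure D2:**
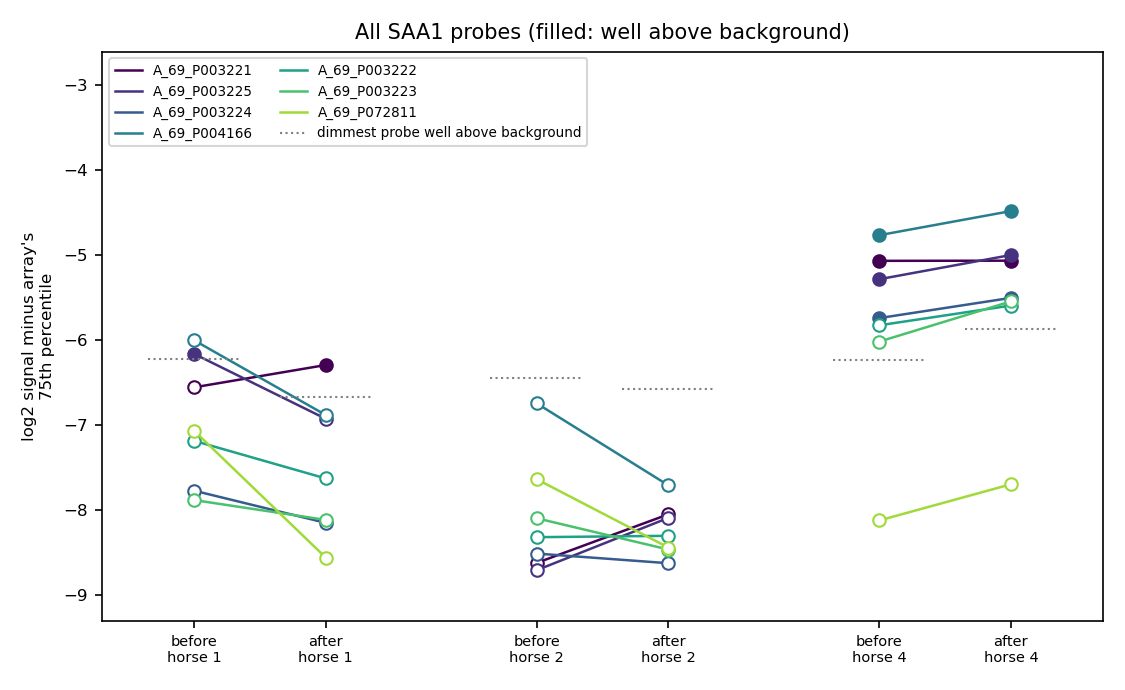
Level (log2 processed signal minus the array's 75th percentile) of all 7 SAA1 probes on the 6 arrays, with the 2 samples of a horse joined. Filled points are well above background and dotted bars mark the dimmest such probe on the array. In horse 4, 6 of 7 probes lie between -6.02 and -4.48, and in horse 2 no probe is well above background.

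SPI2 also differed between the animals far more than within them. One probe (A_69_P000956) had processed signals of 222 ± 22.9 and 302 ± 30.5 scanner units in horse 1 before and after exercise. In horse 2 they were 28.7 ± 7.1 and 32.8 ± 6.1, and in horse 4 they were 367 ± 37.1 and 203 ± 20.8. As levels these were -3.01 and -2.69, -6.47 and -6.10, and -2.25 and -2.47. Horse 2 before exercise was not well above background, and both its arrays lay below the other 4. Horse 4 exceeded horse 2 by 18.5-fold before and 12.4-fold after exercise, and horse 1 exceeded it by 10.9-fold and 10.6-fold. The folds before exercise rest on the horse 2 signal of 28.7 scanner units, just under the 29.1 of the dimmest probe well above background on that array.

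The other SPI2 probe (A_69_P023398) gave the same picture with a larger distance. Its levels were -3.64 and -3.23 in horse 1, -8.18 and -8.21 in horse 2, and -2.64 and -3.08 in horse 4. In horse 2 neither array was well above background, with signals of 8.77 and 7.57 scanner units against errors of 8.73 and 6.36. Horse 4 was at least 12.6-fold and horse 1 at least 8.43-fold higher than horse 2. Across the 6 arrays the 2 probes correlated with r = 0.998 (Spearman's rho 0.94), given as a description, since the 6 arrays come from 3 animals. Horses 1 and 4 were much closer to each other: their means of A_69_P000956 were -2.85 and -2.36, which is near the size of the changes within a horse. Without horse 2 the range of the horse means was 0.49 for A_69_P000956 and 0.57 for A_69_P023398.

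Exercise moved the SPI2 probes little and not alike in the 3 horses. A_69_P000956 changed by 0.32, 0.37 and -0.21 in horses 1, 2 and 4 (mean 0.16 ± 0.32, SD, n = 3 horses). With the horse as a block limma gave an SE of 0.19, an adjusted p of 0.83 and a 95% interval from -0.35 to 0.67. A_69_P023398 changed by 0.42, -0.04 and -0.44 (mean -0.02 ± 0.43), with a blocked adjusted p of 0.99 and a 95% interval from -0.60 to 0.56. Both probes were higher after exercise in horse 1 and lower in horse 4.

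Set against all probes, the spread between animals of these 3 genes was wide for the spread within them. The range of the 3 horse means was 3.03 for SAA, 3.27 and 3.26 for the SAA1 probes, and 3.92 and 5.33 for the SPI2 probes. Over 29351 kept probes measured on all arrays the median range was 0.47, and 2.47% had a range over 2. The largest change within any horse was 0.42 for SAA, 0.57 and 0.77 for SAA1, and 0.37 and 0.44 for SPI2, against a median of 0.52 over all probes. The range between horses was larger than the largest change within a horse in 41.4% of all probes. The ratio of the 2 quantities had a median of 0.85 over all probes and was 7.30 for SAA, 5.71 and 4.26 for SAA1, and 10.7 and 12.3 for SPI2. These values describe what the genes were chosen for. For both SAA1 probes and for SPI2 A_69_P023398 they include horse 2 at levels not well above background, so only a lower bound on the distance is measured. By that bound horse 4 lay at least 1.45 and 1.37 above horse 2 for the SAA1 probes A_69_P003221 and A_69_P003225, and at least 3.65 for A_69_P023398, on the log2 scale. The size of the ranges depended on background correction: with normexp on the median spot signal they were 1.99 for SAA, 1.24 and 1.32 for SAA1, and 2.52 and 2.43 for SPI2, with horse 2 lowest throughout.

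**Figure D3:**
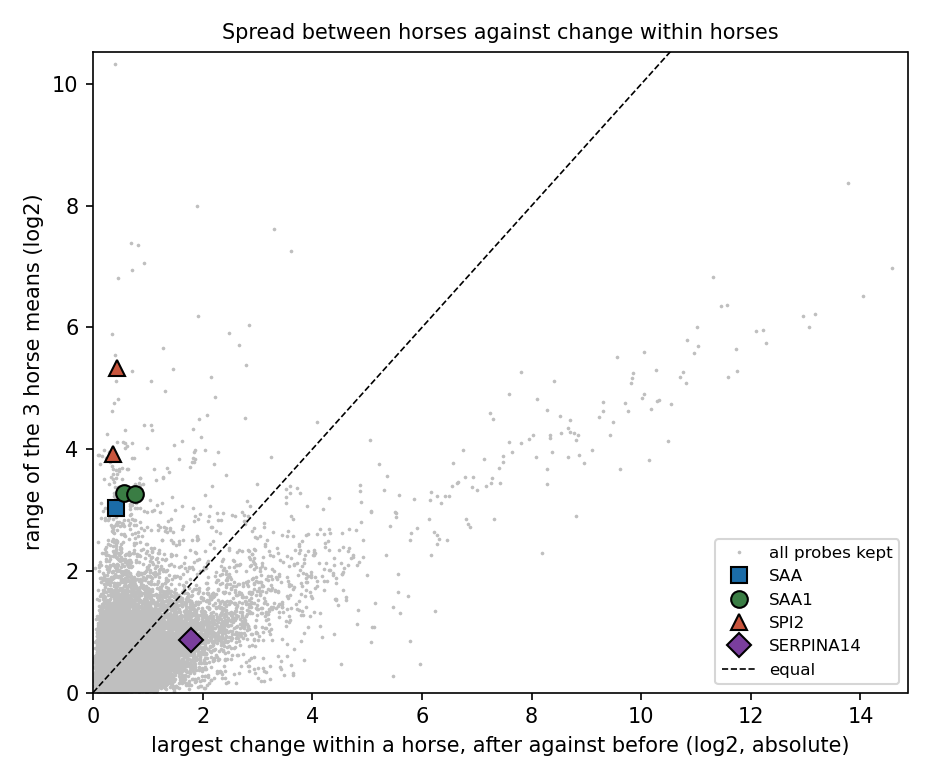
Range of the 3 horse means against the largest absolute change within a horse (both log2), for all probes kept (grey) and for the kept probes of the 4 genes. The dashed line marks equal values. SAA, SAA1 and SPI2 lie at ranges of 3.03 to 5.33 with changes under 0.8, and SERPINA14 lies below the line.

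The distance of horse 2 was present on both slides. On slide 1, where all samples after exercise lay, SAA stood at -3.33, -5.58 and -2.72 in horses 1, 2 and 4, and on slide 2, which held only horses 1 and 2 before exercise, at -3.25 and -5.99. For SPI2 (A_69_P000956) the values were -2.69, -6.10 and -2.47 on slide 1 and -3.01 and -6.47 on slide 2. Within slide 1 alone a comparison of exercise rests on the horse 4 sample as the only one before exercise. It turned the change negative for each of these probes with a positive mean, to -1.08 for SAA and -1.50 for A_69_P000956, since horses 1 and 2 then entered only after exercise. None passed the test (limma, adjusted p = 0.98 for both).

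SERPINA14 was close to the limit of detection. Of its 20 probes, 17 were not well above background on any array, and for 9 probes the signal did not exceed 0 significantly on any array. The 17 probes had median levels of -8.21, -8.34 and -8.29 before exercise in horses 1, 2 and 4, and of -8.72, -8.58 and -7.92 after it. These medians followed the level that each array assigned to spots with no significant signal, which was -8.31, -8.52 and -8.32 before and -8.78, -8.65 and -7.95 after exercise. They hold no order of expression.

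The 3 remaining SERPINA14 probes disagreed with one another. A_69_P006671, the probe kept for testing, had signals of 26.6 ± 6.1 and 21.6 ± 4.6 scanner units in horse 1 before and after exercise. It read 47.0 ± 8.2 and 23.8 ± 5.6 in horse 2, and 76.3 ± 9.1 and 14.1 ± 4.3 in horse 4. As levels these were -6.08 and -6.49, -5.75 and -6.56, and -4.52 and -6.31, and all 3 samples before exercise lay above all 3 after it, as was so in this direction for 3.80% of all kept probes (7.31% in either direction). It was lower in all 3 horses, by -0.42, -0.81 and -1.79, where 11.5% of kept probes were lower in all 3. The mean change was -1.005 ± 0.71 (SD, n = 3 horses). This change is what SERPINA14 was picked for. Only 3 of its 6 values were well above background: horses 2 and 4 before exercise and horse 1 after it.

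A_69_P006653 went the other way in 1 horse. Its changes were -2.57 in horse 1, -0.46 in horse 2 and 3.00 in horse 4, a mean of -0.009 ± 2.82, and it was well above background only before exercise in horse 1 and after exercise in horse 4. A_69_P006674 was lower after exercise in all 3 horses, by -1.17, -3.21 and -0.31, and was well above background in horses 1 and 2 before exercise and on no array after it. Horse 4 before exercise, at a level of -6.89, was not well above background either, so no lower bound on a mean fold is given. Correlations among the 3 probes over the 6 arrays were -0.19, 0.18 and 0.0007, against 0.998 for the pair of SPI2 probes. The kept probe's change fell to -0.14 when normexp was used on the median spot signal, and was -1.94 within slide 1.

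Between horses SERPINA14 did not differ detectably. The choice of genes did not rank it by this difference, but can have favoured a small one, as said above. The means of A_69_P006671 were -6.29, -6.16 and -5.42 in horses 1, 2 and 4, a range of 0.87, while its largest change within a horse was 1.79. limma's F-test between horses, with exercise in the model, gave an adjusted p of 0.44, and 0.237% of 29567 probes were called by that test. Only 3 of the 6 values behind these means were well above background, so they give no order of the horses.

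**Figure D4:**
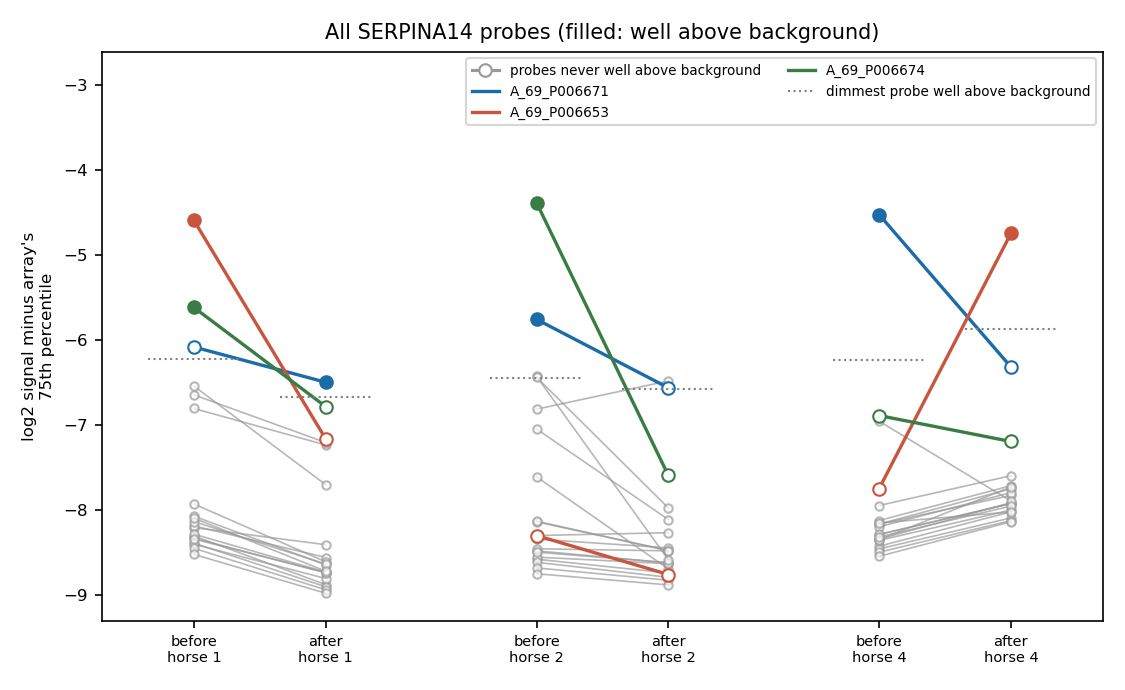
Level (log2 processed signal minus the array's 75th percentile) of all 20 SERPINA14 probes, with the 2 samples of a horse joined. Grey lines are the 17 probes never well above background, and coloured lines are the 3 others, with filled points where well above background. The points well above background lie between -6.49 and -4.38, on different arrays for the 3 probes, and A_69_P006653 is lower after exercise in horses 1 and 2 and higher in horse 4.

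Other genes of the acute phase could be measured only in part, because few probes carry a RefSeq transcript. Of 39 acute-phase genes listed, 4 were measured, and 2 of these besides SAA and SAA1: the ferritin chains FTL (change 0.24, SE 0.23) and FTH1 (0.23, SE 0.24), which store iron. Of 29 serpins and related inhibitors, 4 were measured, with SERPINB1, an inhibitor of neutrophil proteases, at 0.02 (SE 0.25) and SERPINF1 at -0.28 (SE 0.39). Of 23 listed proteases, 3 were measured: the kallikrein KLK1 (0.59, SE 0.31), granzyme B, GZMB (0.21, SE 0.29), and MMP9 (0.23, SE 0.30). The first 2 are serine proteases, and MMP9 is a metalloprotease that TIMPs inhibit, not serpins. Of 29 cytokines, receptors and factors that drive the acute phase, 9 were measured. They include IL6 (1.07, SE 0.54), whose probe was well above background on 3 of 6 arrays, TGFB1 (0.22, SE 0.29) and the glucocorticoid receptor NR3C1 (-0.12, SE 0.20). Of 10 receptors and co-receptors of serum amyloid A, 4 were measured: LY96 (0.36, SE 0.25), TLR4 (0.27, SE 0.31), CD14 (0.29, SE 0.44) and TLR2 (0.03, SE 0.22). In limma 0 members of these 5 lists passed for exercise. Apart from SERPINA14, which was picked for its change, 0 of them had an unadjusted p under 0.05. These errors and p-values come from the fit without the horse as a block, which counts the spread between animals as error. Values with the horse as a block are not given for these genes. The median change was 0.24 for the acute-phase genes, -0.13 for the serpins, 0.08 for the drivers of the acute phase and 0.28 for the receptors, against 0.04 over all probes.

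In the horse order the lists did not follow SAA and SPI2 as a whole. Both arrays of horse 2 lay below the other 4 in 13.9% of all kept probes. Leaving out SAA, SAA1, SPI2 and SERPINA14, this held for 1 of 2 acute-phase genes (FTH1), 1 of 2 serpins (SERPINB1), 1 of 3 proteases (MMP9), 2 of 9 acute-phase drivers (TNF and SOCS3) and 0 of 4 receptors. The distances were small beside those of SPI2. SERPINB1 had means of 4.19, 3.86 and 4.46 in horses 1, 2 and 4, and MMP9 had 3.40, 2.72 and 3.40.

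Some markers of other cell types differed between the horses as well. Red cell and platelet markers (7 of 15 listed genes on the array, 18 probes) had summed levels of 7.05 and 7.73 in horse 1, 4.96 and 5.76 in horse 2, and 8.82 and 9.04 in horse 4, the order seen for SAA and SPI2. The globin genes HBB (means of 6.15, 2.54 and 7.92 in horses 1, 2 and 4) and HBA2 (5.81, 2.48 and 7.66) were 2 of the 4 measured genes, of 6, with that order at both times. SPARC (1.04, -3.06 and -0.70) and SELP (4.96, 4.59 and 4.94) were lowest in horse 2 but highest in horse 1. Neutrophil markers (5 of 20 listed genes on the array) had summed levels of 4.73 and 4.78 in horse 1, 4.17 and 4.58 in horse 2, and 4.92 and 4.97 in horse 4. Monocyte markers (8 of 12) had 7.47 and 7.91, 7.25 and 7.82, and 8.51 and 8.91. Both sums thus had the order of SAA and SPI2 at both times, with smaller distances than the red cell and platelet sum. A sum gives most weight to bright genes, and the monocyte genes were not alike. TIMP1, the brightest measured, had means of 4.996, 4.943 and 6.216 in horses 1, 2 and 4. CD14 (4.18, 3.24 and 3.79), CSF1R, TLR4 and CD68 had their highest mean in horse 1. TIMP1, ITGAX, TLR2 and CCR2 had theirs in horse 4. Lymphocyte markers (8 of 18) had 5.13 and 6.01, 5.18 and 5.92, and 6.60 and 6.09, with horse 1 lowest before exercise. Gene by gene, the order of SAA and SPI2 held at both times for 0 of 5 measured neutrophil, 2 of 8 monocyte and 2 of 8 lymphocyte markers. Of all kept probes 12.0% have that order, and in lists this short these 3 counts are not set apart from that share. The part of these cells in the levels of SAA, SAA1 and SPI2 was not tested. In these bulk samples, more cells of a type and more RNA per cell cannot be told apart. Liver markers (6 of 22 on the array, 12 probes) ran otherwise: their summed level was lowest in horse 4, at -3.05 and -3.03, against -0.23 and -0.45 in horse 1 and -1.11 and -1.73 in horse 2, with ALB not well above background on any array. The 3 liver genes that passed the filter, all cytochromes P450, were CYP2C92 (change -0.32, SE 0.68), CYP3A89 (-0.14, SE 0.99) and CYP3A93 (-0.16, SE 1.21). CYP2C92 and CYP3A89 were well above background on all 6 arrays and CYP3A93 on 4. In limma without the horse as a block, which also gave the SEs above, 0 genes of the 5 cell type lists passed for exercise. Their median changes were -0.16 for liver, 0.18 for neutrophils, 0.17 for monocytes, 0.03 for lymphocytes and 0.31 for red cells and platelets. Some genes stand in more than 1 list, among them MMP9, CD14, TLR2 and TLR4.

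Other named genes had profiles like those of SAA, SAA1 and SPI2 across the 6 arrays, compared over 555 named genes by Pearson's r and given without a test, since the arrays share 3 animals. SAA and SPI2 were each other's nearest (r = 0.994, rho 0.89). Also near SAA were the chaperone HSPA8 (0.983), EQMCE1 (0.983) and the chemokine receptor CCR2 (0.977). For the SAA1 probe A_69_P003221 they included the glycolytic enzyme ENO1 (0.987), the globin HBA2 (0.983) and CPT1A, which carries fatty acids into mitochondria (0.976). Near SPI2 were also HSPA8 (0.989), CCR2 (0.986) and the serotonin transporter SLC6A4 (0.980). All of these named genes had the order of horse 2, horse 1, horse 4 at both times except SLC6A4. They were chosen for a high r with probes of that order, so this follows largely from the choice. Of all kept probes 12.0% have that order. Over far smaller distances, HSPA8 had means of 5.83, 5.28 and 5.95. Near SERPINA14 were QKI (0.956), TRMT12 (0.874), ZNF322 (0.866) and SLC5A3 (0.778). Only 3 of the 6 values of the SERPINA14 probe were well above background, so no order of horses is compared for it.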

How the data were processed

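The deposited scanner tables, 1 per array, were written by Agilent Feature Extraction 10.10.1.1, per the file headers. Its processed signal is an intensity that was background-subtracted and not normalized between arrays, per the file headers. RNA was labelled with Cy3 on 1-colour arrays, per the labels. Each signal was put on the log2 scale relative to the 75th percentile of its array (43803 non-control spots). Outlier spots (67 to 169 per array) were left out, and none belonged to a probe described here. Probes well above background on at least 3 arrays were kept (29571 of 43603). limma 3.58.1 in R 4.3.3 (lmFit and eBayes, two-sided, Benjamini-Hochberg over all probes) compared 3 arrays after with 3 before exercise, and horses by an F-test. The spread includes that between animals.

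Same-numbered samples come from 1 animal, and their arrays deviated together from the group means (correlations of 0.36, 0.40 and 0.23), so the horse number pairs them. Probes were named by RefSeq accession through a gene table of TB-T2T (1979 probes); the array's own build is EquCab1 and no coordinate is used. The genes and lists were chosen with earlier results of these data known. Named besides were, by rule, the 3 genes of smallest p per list (for blood cell lists, counts and medians are given) and the 5 most alike per gene, some of which are not reported here; others were named after their values were seen. Alternatives covered background, normalization, filter, outlier spots, slide, horse, averaging the probes of a gene, and left-out horses or arrays. The exercise fit without a block and the test between horses were run on simulated arrays, with an outcome not reported here. Those arrays were independent apart from the changes put in, so they lack the pairing by horse. The fit with the horse as a block was not run on them.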

Additional observations from a re-analysis of the deposited data

How the results depend on the processing

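No change of SAA, SAA1, SPI2 or SERPINA14 with exercise passed limma's threshold under any alternative run. The lowest adjusted p in limma was 0.0601, for the SERPINA14 probe A_69_P006671 with the slide as a block. Its change stayed below 0 (-1.94 to -0.14), but SERPINA14 was picked for this change, so neither value tests it. Another SERPINA14 probe, A_69_P006653, had a mean change of -0.009 in the main setting. Over all probes the exercise calls went from 0 to 132 with the slide as a block, 122 on slide 1 alone and 117 with horse and slide as the replicate block, and stayed at 0 with the horse alone as the replicate block. Leaving out a horse or an array gave 0 to 595, with 595 without horse 4 before exercise and 20 without horse 4.

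Small changes turned sign. With the slide as a block and on slide 1 alone the change was -1.08 for SAA, -1.50 for SPI2 A_69_P000956, and -1.40 and -1.39 for SAA1 A_69_P003221 and A_69_P003225. With horse and slide as the replicate block A_69_P000956 was at -0.21. SPI2 A_69_P023398 was at 0.19 with normexp, 0.18 with quantile normalization 0.069 with the array median and 0.070 as the mean of the kept probes. Leaving out a horse or an array gave -0.85 to 0.99 for SAA, -1.12 to 1.33 and -1.70 to 1.67 for the SPI2 probes A_69_P000956 and A_69_P023398, and -0.66 to 1.12 and -0.95 to 0.76 for the SAA1 probes. The slide as a block, slide 1 alone and single left-out arrays set horses against each other in the fit. With horse and slide as the replicate block the change is that of horse 4 alone. For the other settings the cause was not tested.

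Calls between horses fell from 70 to 1 with quantile normalization, with outlier spots kept and with the slide as a block, and to 2 without a filter. They were 0 to 456 with a horse or an array left out (456 without horse 4 after exercise, 0 without horse 1 or either of its arrays, 1 without horse 4 before and 29 without horse 2 before exercise). For SPI2, SAA and SAA1 this comparison chose the genes, so their side of its threshold tests nothing, and it was not stable. SPI2 A_69_P000956 fell outside in 11 of 17 alternatives (adjusted p from 0.0131 to 0.71 over all 17) and A_69_P023398 in 10 of 17 (0.0117 to 0.69). SAA came inside in 3 of 17 (0.0346 to 0.65) and SAA1 A_69_P003221 in 2 of 17 (0.0333 to 0.35). Without horse 2 the SPI2 ranges were 0.49 and 0.57. With normexp the lowest horse for SERPINA14 changed (range 0.67), and left-out samples gave 0.13 to 1.46.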
